A study of Mus musculus with 6 samples.

Results

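The peroxiredoxin, thioredoxin and glutathione peroxidase genes examined here encode the main peroxide-removing enzymes of the cell and their electron donors. They were chosen by symbol, 10 of the 50686 genes in the count table: the peroxiredoxins Prdx1, Prdx2, Prdx3, Prdx4, Prdx5 and Prdx6, the thioredoxin gene Txn1, the thioredoxin reductase gene Txnrd1, and the glutathione peroxidases Gpx1 and Gpx4. All 10 were found, each under 1 protein-coding gene ID, and all 10 passed the filter on low counts. Bulk RNA sequencing covered 6 libraries of splenic natural killer (NK) cells, 3 per group. The Eumyc mice were C57BL/6J animals given Eumyc lymphoma, a B cell lymphoma driven by Myc, by intravenous injection, with spleens taken on day 14. The WT group came from healthy C57BL/6J mice with a wild type genotype label. In both groups B cells were removed with the 1D3 antibody, cells were selected on CD49b beads, and NK1.1+ TCRb- cells were sorted. For Eumyc the cells that the CD49b beads had not held were sorted too, so the lymphoma and this step cannot be told apart in any difference given here. The labels do not say whether the libraries of a group came from separate animals, and the p-values therefore measure the spread between these samples, which may be technical.

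Peroxiredoxins reduce hydrogen peroxide with a reactive cysteine, and thioredoxin restores most of them afterwards. Thioredoxin is itself reduced by thioredoxin reductase at the expense of NADPH, while glutathione peroxidases take their electrons from glutathione, which glutathione reductase regenerates from the same cofactor. In lymphocytes these systems limit oxidative damage and set how long peroxide made during activation persists.

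Gpx1, Gpx4 and Txnrd1 are selenoproteins: a TGA codon inside their reading frame, normally a stop, is read as selenocysteine, the residue that does the chemistry. The reading frame around this codon is shown because it is the feature these enzymes share and the peroxiredoxins lack. The sequences are from the GENCODE M21 annotation on GRCm38, plus strand, with the TGA in capitals. The stretches are chr9:108339430-108339474 for Gpx1, chr10:80054716-80054760 for Gpx4 and chr10:82896016-82896042 for Txnrd1.
Gpx1: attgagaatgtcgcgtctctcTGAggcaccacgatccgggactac
Gpx4: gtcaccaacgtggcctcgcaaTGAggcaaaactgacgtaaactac
Txnrd1: gacatcctccagtctggctgcTGAggt
In Gpx1 the TGA was codon 47 of 201. In Gpx4 it was codon 73 of 197 in the transcript ENSMUST00000105372.7. In Txnrd1 it was codon 498 of 499 in ENSMUST00000020484.7, next to the last residue before the true stop, with a glycine codon after it. In both peroxidases the TGA was likewise followed by the glycine codon ggc.

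Promoter windows from RefSeq on GRCm38.p6, 250 bases before to 50 bases after each start, were held for 9 of the 10 genes, all but Prdx6, in 14 windows since some genes have several starts. They were searched on both strands for TGACNNNGC, the core of the antioxidant response element bound by NRF2, and for the E-box CACGTG, the preferred site of Myc and Max. No window of these genes held both motifs, so no matches overlap. TGACNNNGC was in 2 of the 14 windows, 1 of Prdx1 and 1 of Txnrd1, against 12.4% of all 32851 windows. CACGTG was in 1 of the 14, of Prdx4, against 7.15% of all windows. Shares of this size in 14 windows are no result about these genes. The matches are shown with the matched letters in capitals. The windows of Prdx2, Prdx3, Prdx5, Txn1 and Gpx1, which also changed, and of Gpx4, which did not pass the test, held neither motif. The stretches are chr4:116685446-116685494 (plus strand) for Prdx1, chr10:82859094-82859142 (plus strand) for Txnrd1 and chrX:155338487-155338532 (minus strand) for Prdx4.
Prdx1: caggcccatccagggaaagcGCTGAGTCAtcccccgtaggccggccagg
Txnrd1: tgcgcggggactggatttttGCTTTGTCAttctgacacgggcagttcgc
Prdx4: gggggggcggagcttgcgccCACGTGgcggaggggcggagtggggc
The Prdx1 and Txnrd1 matches read TGACNNNGC on the strand opposite the gene and began 133 and 92 bases before the start, and the Prdx4 match began 52 bases before it. A match of letters is not evidence of binding.

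The libraries held 44456157 to 66615602 gene counts in Eumyc and 16407611 to 36534191 in WT. NK cell markers were abundant in every library: Ncr1, an activating receptor of NK cells, averaged 1124 ± 66.1 CPM (counts scaled to a common library total) in Eumyc and 1365 ± 43.2 CPM in WT (SD, n = 3 each), and the summed level of 10 NK cell markers was 11222 to 12367 CPM in Eumyc and 13022 to 13407 CPM in WT. Of these 10 markers 0 were higher and 6 lower in Eumyc, Ncr1 among them, and their sums did not overlap (two-sided exact permutation p = 0.1). Over all tested genes 25.7% were higher and 23.1% lower, and the marker counts in this paragraph stand beside these shares. Markers of other cells were higher in the Eumyc libraries, with summed levels that did not overlap for any of the 7 other cell type lists (two-sided exact permutation test, p = 0.1 for each, the smallest p that 3 against 3 can give). The monocyte and macrophage list of 12 genes summed to 1647 to 2266 CPM in Eumyc and 890 to 1018 CPM in WT, with 7 of 12 higher. The neutrophil list summed to 54.2 to 75.6 CPM in Eumyc and 4.13 to 6.22 CPM in WT, with 8 of 9 tested genes higher. The erythroid list summed to 61.8 to 73.3 CPM in Eumyc and 14.9 to 33.8 CPM in WT, with 8 of 9 higher. The B cell and lymphoma list summed to 299 to 693 CPM in Eumyc and 194 to 206 CPM in WT, with 9 of 10 higher. The plasma cell list summed to 276 to 303 CPM in Eumyc and 227 to 240 CPM in WT (6 of 7 tested genes higher, 1 lower), and the T cell list to 474 to 529 CPM in Eumyc and 374 to 409 CPM in WT (4 of 10 higher). The dendritic cell list summed to 58.3 to 76.4 CPM in Eumyc and 31.8 to 48.0 CPM in WT (5 of 8 higher). No marker was at 0 in all 6 libraries. In bulk RNA a larger share of such cells, more RNA per cell and expression of these genes in NK cells cannot be told apart. The part of other cell types in the differences below was not tested. Some libraries stood apart from the rest of their groups. Eumyc 1 had more monocyte and macrophage transcripts than Eumyc 2 and 3, and WT 3 had more cell division transcripts than WT 1 and 2. Eumyc 3 had the highest B cell and lymphoma sum, 693 CPM against 299 and 363 CPM in Eumyc 1 and 2. Its cell division sum was also the highest, 2894 CPM against 2051 and 2115 CPM.

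Of the 10 genes, 8 were higher in Eumyc, 0 were lower, and Prdx4 and Gpx4 did not pass the test (edgeR quasi-likelihood test, Benjamini-Hochberg adjusted p under 0.05 over 15458 genes). Over all genes tested, 48.8% passed, 25.7% higher and 23.1% lower. The counts of every gene list above and below stand beside these same shares. The 8 genes were also those whose libraries did not overlap between the groups, all with Eumyc above WT, against 31.3% of all tested genes separated in this direction and 28.9% in the other. The median log2 fold change of the 10 genes was 0.59, against -0.00 over all tested genes. Tested against a change of 1.5-fold, 3 genes passed, Gpx1, Txn1 and Prdx1, where 8.15% of all tested genes were higher. Levels below are CPM scaled with the TMM factors of edgeR, and log2 fold changes are Eumyc over WT with their standard error.

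**Figure D1:**
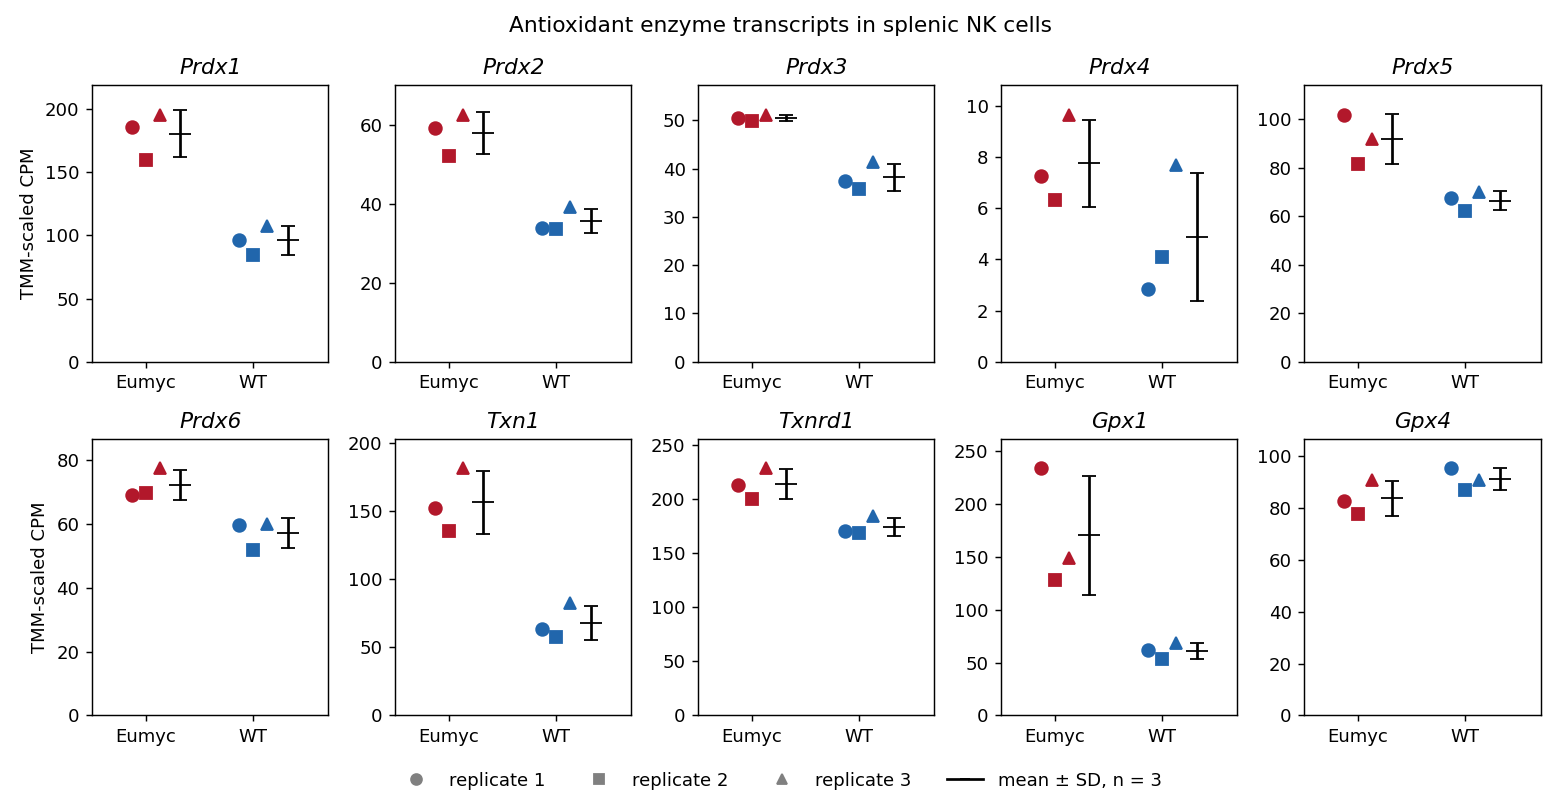
Scaled CPM (y axis, from 0, its own scale in each panel) of the 10 genes in the Eumyc (red, left) and WT (blue, right) libraries; symbols are replicates and the black marks give the mean ± SD (n = 3). The groups are separate in 8 panels and overlap for Prdx4 and Gpx4, and Eumyc 1 stands above the other Eumyc libraries for Gpx1, at 234 CPM.

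Among the peroxiredoxins 5 of 6 rose, by 1.26-fold to 1.88-fold, and Prdx1 rose the most. Prdx1 (ENSMUSG00000028691, chr4:116685544-116700822), the main peroxiredoxin of the cytosol and nucleus and a chaperone when over-oxidised, stood at 186, 160 and 195 CPM in Eumyc 1, 2 and 3, against 96.5, 84.7 and 107 CPM in WT 1, 2 and 3. Every Eumyc library lay well above every WT library, and the log2 fold change was 0.91 ± 0.10 (adjusted p = 0.000387). Prdx2 (ENSMUSG00000005161, chr8:84969587-84974834), its close cytosolic relative and one of the most abundant proteins of red cells, had 59.3, 52.2 and 62.7 CPM in Eumyc, against 34.0, 33.8 and 39.2 CPM in WT. Its groups were separate as well, with a log2 fold change of 0.71 ± 0.09 (adjusted p = 0.000695). The haemoglobin gene Hbb-bs, the most abundant erythroid marker, was at 24.1 ± 1.14 CPM in Eumyc and 10.3 ± 5.34 CPM in WT. Within WT the erythroid list summed to 33.8, 21.9 and 14.9 CPM in WT 1, 2 and 3, while Prdx2 was highest in WT 3. The part of erythroid transcripts in the difference of Prdx2 was not tested.

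Prdx3 (ENSMUSG00000024997, chr19:60864051-60874556), the peroxiredoxin confined to mitochondria, had 50.4, 49.96 and 51.2 CPM in Eumyc, against 37.4, 35.9 and 41.3 CPM in WT. The Eumyc libraries were nearly level with each other, and the log2 fold change was 0.41 ± 0.07 (adjusted p = 0.00261). Prdx5 (ENSMUSG00000024953, chr19:6906697-6910106), found in mitochondria, peroxisomes and cytosol, had 102, 81.4 and 91.8 CPM in Eumyc, against 67.5, 62.0 and 69.8 CPM in WT. It rose by 0.47 ± 0.09 on the log2 scale (adjusted p = 0.00346), with Eumyc 1 the highest library. Prdx6 (ENSMUSG00000026701, chr1:161240112-161251219), which has a single reactive cysteine, is reduced by glutathione and also acts as a phospholipase, had 69.1, 69.8 and 77.5 CPM in Eumyc, against 59.6, 51.7 and 60.0 CPM in WT. Its rise of 0.34 ± 0.08 (adjusted p = 0.00913) was the smallest among the peroxiredoxins that passed.

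Prdx4 (ENSMUSG00000025289, chrX:155323918-155340754), the peroxiredoxin of the endoplasmic reticulum, was the least abundant of the family. It had 7.25, 6.33 and 9.65 CPM in Eumyc, against 2.85, 4.08 and 7.67 CPM in WT, from 314, 409 and 641 counts in Eumyc and 79, 151 and 128 counts in WT. WT 3 lay inside the Eumyc range, and the log2 fold change of 0.71 ± 0.33 did not pass (adjusted p = 0.111). With all 6 libraries it passed under limma-voom (0.88, adjusted p = 0.0384) and not under DESeq2 (0.69, adjusted p = 0.0578). Without WT 3 it was 1.16 and passed (adjusted p = 0.00629), and without WT 3 and Eumyc 1 it was 1.21 (adjusted p = 0.00701).

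**Figure D2:**
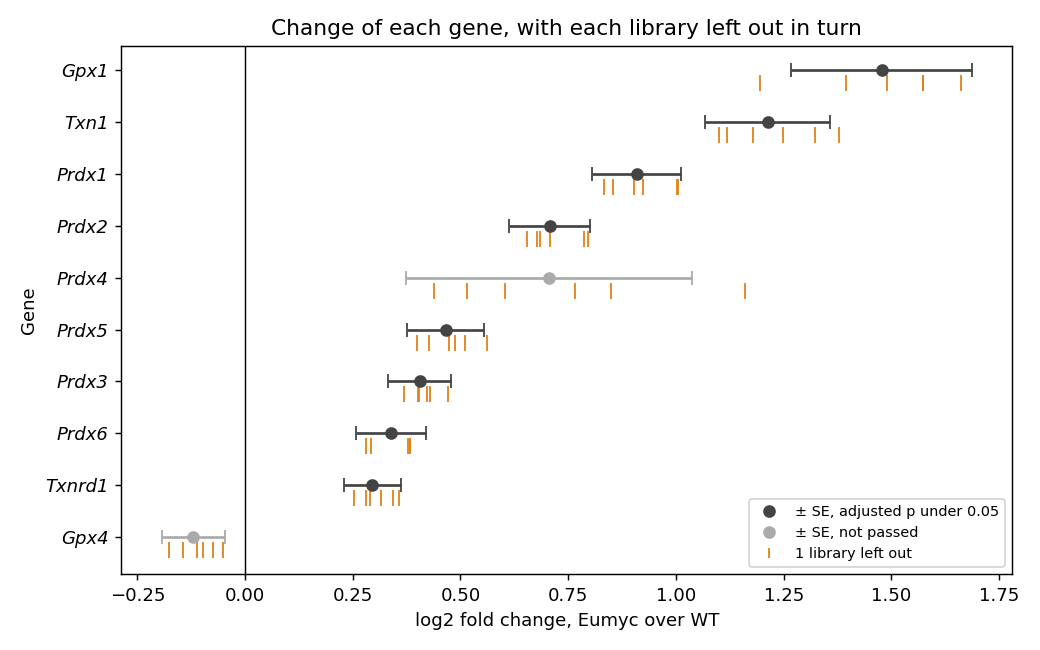
Log2 fold change, Eumyc over WT (x axis), of the 10 genes; points and bars are the edgeR estimate ± SE, grey where the test was not passed, and orange ticks give the value with each library left out in turn. Gpx1 (1.48), Txn1 (1.21) and Prdx1 (0.91) lie farthest to the right, and Gpx4 (-0.12) is the single gene to the left of 0.

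Txn1 (ENSMUSG00000028367, chr4:57943373-57956411), the cytosolic thioredoxin that reduces the peroxiredoxins, ribonucleotide reductase and several transcription factors, had 152, 136 and 181 CPM in Eumyc, against 63.4, 57.7 and 82.2 CPM in WT. It was 2.32-fold higher (log2 fold change 1.21 ± 0.15, adjusted p = 0.000458), and within each group the replicate 3 library was the highest. Txnrd1 (ENSMUSG00000020250, chr10:82833951-82897712), which reduces Txn1, had 213, 201 and 229 CPM in Eumyc, against 171, 169 and 184 CPM in WT. Its groups did not overlap, but its rise of 0.30 ± 0.07 (adjusted p = 0.00684) was the smallest of the 8. Txnip, which binds thioredoxin and blocks it, moved the other way. It had 314, 380 and 291 CPM in Eumyc, against 1071, 1080 and 809 CPM in WT, and fell by 1.59 ± 0.14 on the log2 scale (adjusted p = 0.000182).

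Of the 12 thioredoxin and glutaredoxin partners, 7 were higher, 2 were lower and 3 did not pass, with a median log2 fold change of 0.35. Glrx, the cytosolic glutaredoxin that removes glutathione from protein thiols, averaged 49.7 ± 8.29 CPM in Eumyc and 12.5 ± 2.74 CPM in WT (SD, n = 3 each), a log2 fold change of 2.00 ± 0.18 (adjusted p = 0.000199). Txnrd3, the reductase best known from testis, was lower, at 6.11 ± 0.166 CPM in Eumyc and 10.8 ± 0.532 CPM in WT (-0.82 ± 0.11, adjusted p = 0.000822). The mitochondrial thioredoxin Txn2 averaged 88.7 ± 2.68 CPM in Eumyc and 67.6 ± 7.70 CPM in WT and rose by 0.40 ± 0.08 (adjusted p = 0.00513). Its reductase Txnrd2 averaged 13.9 ± 1.40 CPM in Eumyc and 15.1 ± 1.01 CPM in WT and did not pass (-0.12 ± 0.11, adjusted p = 0.412). Sulfiredoxin, Srxn1, which repairs over-oxidised peroxiredoxins, averaged 27.2 ± 1.41 CPM in Eumyc and 21.7 ± 4.06 CPM in WT and did not pass (0.33 ± 0.13, adjusted p = 0.0627); it passed with all 6 libraries under DESeq2 (0.34, adjusted p = 0.0324), limma-voom (0.38, adjusted p = 0.0205) and no filter in edgeR (0.36, adjusted p = 0.0380), and in edgeR without WT 3 (0.50, adjusted p = 0.00294).

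Of the glutathione peroxidases Gpx1 rose and Gpx4 did not pass. Gpx1 (ENSMUSG00000063856, chr9:108338903-108340343), which removes hydrogen peroxide in cytosol and mitochondria, had 234, 128 and 149 CPM in Eumyc, against 61.5, 53.6 and 68.8 CPM in WT. It was 2.78-fold higher, the largest change of the 10 genes (log2 fold change 1.48 ± 0.21, adjusted p = 0.000904), and Eumyc 1 was far above Eumyc 2 and 3. Without Eumyc 1 the log2 fold change was 1.19 (adjusted p = 0.000436). Gpx4 (ENSMUSG00000075706, chr10:80047166-80056439), the peroxidase that reduces lipid peroxides in membranes and protects cells from ferroptosis, had 82.8, 77.6 and 91.0 CPM in Eumyc, against 95.4, 86.9 and 91.0 CPM in WT. The groups overlapped and the log2 fold change was -0.12 ± 0.07 (adjusted p = 0.203). It passed in none of the 17 alternative settings, which put it between -0.18 and -0.05. Among the other glutathione peroxidases Gpx2, Gpx5 and Gpx6 were at 0 counts in every library, and 0 of the 3 tested, Gpx3, Gpx7 and Gpx8, passed. Without Eumyc 1, 1 of these 3 was lower.

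Gpx1 was the member with the largest gap between Eumyc 1 and the other Eumyc libraries. Its log2 level in Eumyc 1 was 0.76 above the mean of Eumyc 2 and 3, where the monocyte and macrophage list was higher for 10 of 12 genes with a median of 0.88. Csf1r, the receptor for the macrophage growth factor, averaged 226 ± 104 CPM in Eumyc and 42.2 ± 8.07 CPM in WT. Lyz2, a lysozyme of myeloid cells, had 297, 123 and 138 CPM in Eumyc, against 11.8, 10.04 and 28.3 CPM in WT. Itgax, the most abundant gene of this list in Eumyc, rose less, by 0.66 on the log2 scale, and did not pass the test against 1.5-fold. Between the groups 5 of the 12 genes of this list did not pass. Of the other members Prdx5 was the next highest in Eumyc 1, by 0.24, and 4 of the 10 were higher there in all. In WT 3, 9 of 10 members were higher than the mean of WT 1 and 2, with a median of 0.19. The largest such gaps were 1.17 for Prdx4 and 0.44 for Txn1, and Gpx4 was level (-0.00). How many of all tested genes were higher in WT 3, or in Eumyc 1, was not counted. These counts are therefore no result about the members. All 10 genes of the cell division list were higher in WT 3 than in WT 1 and 2, and all 10 were higher in Eumyc than in WT, with summed levels of 2051, 2115 and 2894 CPM in Eumyc and 279, 265 and 666 CPM in WT. Among the Eumyc libraries Prdx1, Prdx2, Prdx3, Prdx4, Prdx6, Txn1, Txnrd1 and Gpx4 were highest in Eumyc 3. The part of dividing, myeloid or B lineage cells in the members' differences was not tested. Without both WT 3 and Eumyc 1, 9 of 10 members were higher, an alternative chosen after seeing the data.

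**Figure D3:**
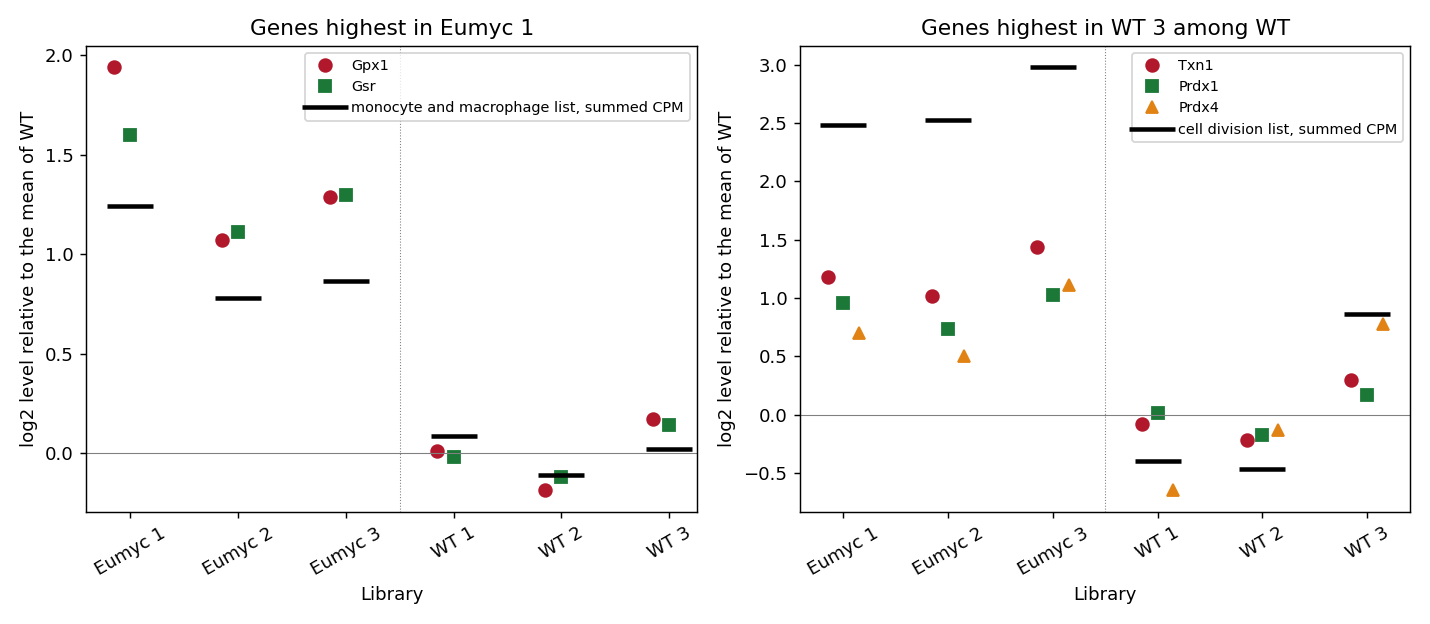
Log2 level relative to the WT mean (y axis) in each library (x axis) for Gpx1 and Gsr beside the summed monocyte and macrophage list (left), and for Txn1, Prdx1 and Prdx4 beside the summed cell division list (right). Eumyc 1 is the highest library for everything in the left panel, and WT 3 is the highest WT library for everything in the right panel.

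Levels between genes were compared per length, as counts per kilobase of union exon scaled to the same total in each library (TPM, with exon lengths from GENCODE M21). Union exons join all annotated transcripts of a gene, so the order depends on the annotation. In WT, Prdx6 (4804 bases) averaged 57.1 scaled CPM and Prdx3 (1478 bases) 38.2, the reverse of their order per length. Txn1 was the most abundant member in both groups, at 494 ± 69.4 in Eumyc and 229 ± 40.1 in WT (SD, n = 3 each, on this scale as are the values that follow). Gpx1 came next in Eumyc and came after Gpx4 in WT, at 391 ± 123 in Eumyc and 151 ± 16.8 in WT, and its Eumyc range overlapped that of Txn1. Gpx4 lay below Gpx1 and Prdx1 in every Eumyc library and above both in every WT library (161 ± 11.8 in Eumyc, 188 ± 8.05 in WT). Prdx1 averaged 197 ± 17.7 in Eumyc and 113 ± 11.8 in WT, where it overlapped Prdx5 (142 ± 13.6 in Eumyc, 111 ± 5.23 in WT). Then came Prdx3 (114 ± 1.68 in Eumyc, 92.1 ± 5.49 in WT) and Txnrd1 (100.3 ± 5.81 in Eumyc, 87.8 ± 3.20 in WT), which overlapped each other in WT. Prdx2 (63.2 ± 5.09 in Eumyc, 41.6 ± 3.09 in WT) and Prdx6 (49.9 ± 3.22 in Eumyc, 42.3 ± 2.99 in WT) overlapped in WT and not in Eumyc, and Prdx4 was last (12.2 ± 2.62 in Eumyc, 8.21 ± 4.12 in WT).

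The make-up of the peroxiredoxin transcripts was described from the same per-length values. The summed per-length level of the 6 peroxiredoxins was 589, 538 and 606 in Eumyc and 405, 379 and 439 in WT. Prdx1 made up 34.0% ± 1.04 of that sum in Eumyc and 27.6% ± 0.929 in WT (SD, n = 3 each), and Prdx2 10.9% ± 0.261 in Eumyc and 10.2% ± 0.375 in WT. The mitochondrial Prdx3 made up 19.7% ± 1.35 in Eumyc and 22.6% ± 0.464 in WT, and Prdx5 24.6% ± 1.61 in Eumyc and 27.2% ± 0.926 in WT. Prdx6 made up 8.65% ± 0.594 in Eumyc and 10.4% ± 0.483 in WT. Prdx4 was the smallest share in both groups, at 2.10% ± 0.348 in Eumyc and 1.99% ± 0.870 in WT. These shares depend on the same exon lengths, are a description and were not tested.

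**Figure D4:**
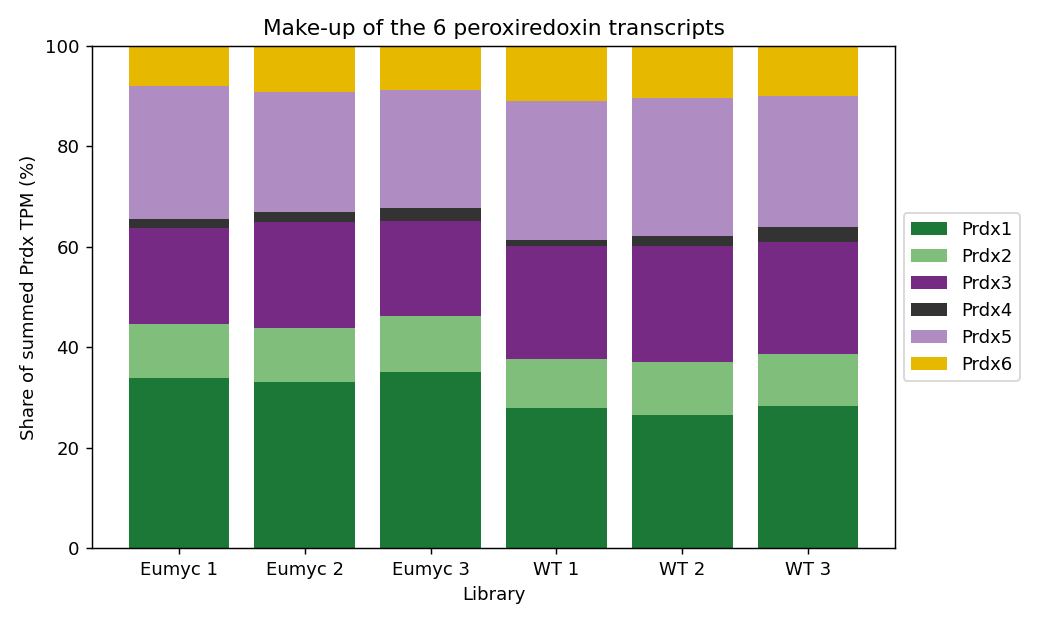
Share of the summed per-length peroxiredoxin level (y axis, percent) taken by each of the 6 genes in the 3 Eumyc and 3 WT libraries. Prdx1 averages 34.0% in Eumyc and 27.6% in WT, and Prdx4 is the thinnest band throughout.

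A ratio of counts within a library does not depend on how the libraries are scaled, and 12 such ratios were compared. Of these, 9 did not overlap between the groups, each with an exact permutation p of 0.1, the smallest that 3 against 3 allows, and 0.133 after Benjamini-Hochberg adjustment over the 12, so none passes 0.05. The ratio of Txnip to Txn1 was 2.06, 2.80 and 1.60 in Eumyc and 16.9, 18.7 and 9.84 in WT, 6.95-fold lower in Eumyc. The ratio of Gpx4 to Gpx1 was 0.354, 0.605 and 0.612 in Eumyc and 1.55, 1.62 and 1.32 in WT, so Gpx4 had fewer counts than Gpx1 in every Eumyc library and more in every WT library. Txnrd1 to Txn1 was 1.40, 1.48 and 1.26 in Eumyc and 2.69, 2.92 and 2.24 in WT, and Gsr to Txnrd1 was 0.525, 0.397 and 0.395 in Eumyc and 0.213, 0.201 and 0.220 in WT. The first of these pairs weighs reductase against its substrate, and the second the glutathione reductase against the thioredoxin reductase. Prdx6 to Prdx1 was 0.372, 0.437 and 0.397 in Eumyc and 0.618, 0.611 and 0.558 in WT, and Srxn1 to Prdx1 was 0.154, 0.161 and 0.140 in Eumyc and 0.201, 0.228 and 0.246 in WT. The other separated ratios were Prdx1 to Prdx2 (log2 difference 0.20), Txn2 to Txn1 (-0.81) and Txnrd2 to Txnrd1 (-0.42). Prdx3 to Prdx5 (-0.06, exact p = 0.7), Prdx4 to Prdx1 (-0.14, exact p = 0.8) and Sod2 to Sod1 (-0.13, exact p = 0.3) overlapped.

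**Figure D5:**
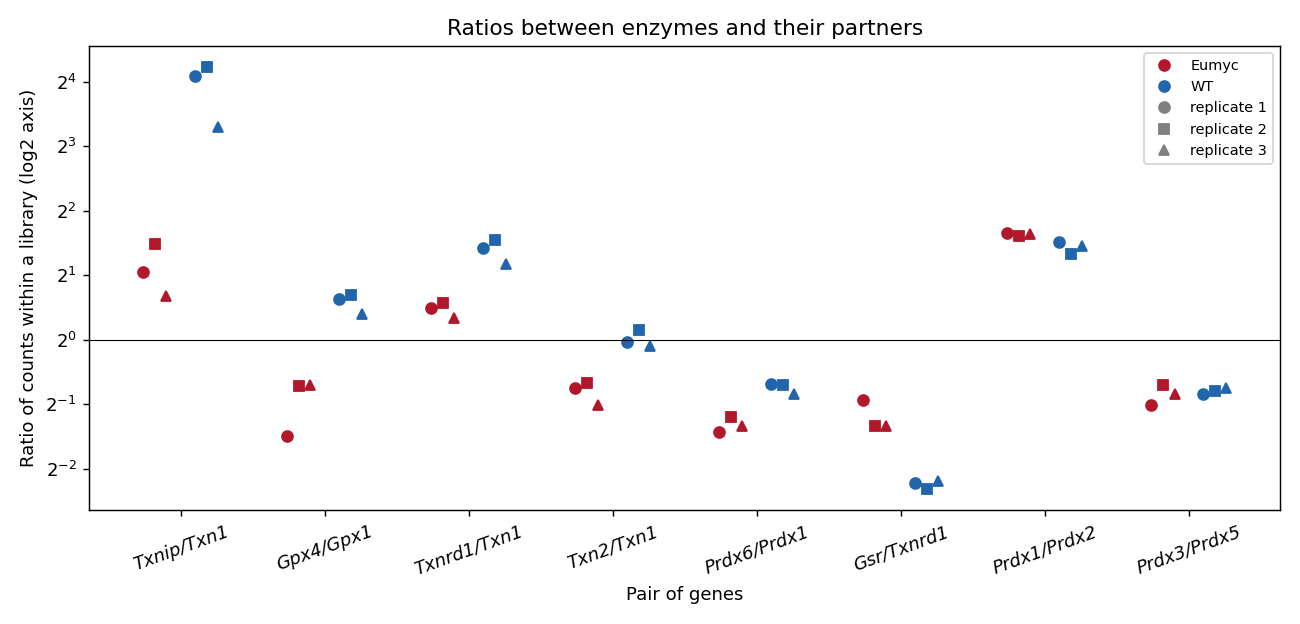
Ratio of counts within each library (y axis, log2 scale) for 8 of the 12 pairs, with Eumyc in red and WT in blue and a symbol for each replicate. The Txnip to Txn1 ratios are the farthest apart (log2 difference -2.80), Gsr to Txnrd1 is higher in Eumyc (1.04), and Prdx3 to Prdx5 overlaps.

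The genes that make and recycle glutathione went in both directions, as did the tested genes as a whole. Of 12 tested genes of glutathione synthesis and recycling, 4 were higher (33.3%), 3 were lower and 5 did not pass. The count lower was 1 when Eumyc 1, Eumyc 2, Eumyc 3, WT 1 or WT 2 was left out, and with no filter. The count higher was 2 after thinning to the smallest library. Over all tested genes 25.7% were higher and 23.1% lower. The median log2 fold change was -0.00 for the list and for all tested genes. Gsr, the reductase that regenerates glutathione, averaged 93.9 ± 16.4 CPM in Eumyc and 37.0 ± 3.40 CPM in WT and rose by 1.35 ± 0.13 (edgeR adjusted p = 0.000225). Gclc, the catalytic subunit of the enzyme that starts glutathione synthesis, averaged 46.6 ± 1.84 CPM in Eumyc and 51.6 ± 7.05 CPM in WT and did not pass (-0.15 ± 0.10, adjusted p = 0.258). Its regulatory subunit Gclm averaged 19.7 ± 1.07 CPM in Eumyc and 15.7 ± 1.28 CPM in WT and passed narrowly (0.32 ± 0.10, adjusted p = 0.0280); it did not pass without Eumyc 1 (0.34, adjusted p = 0.0609), Eumyc 3 (0.29, adjusted p = 0.0992) or WT 2 (0.28, adjusted p = 0.0831). Oplah, which recycles 5-oxoproline to glutamate, was lower (23.96 ± 2.83 CPM in Eumyc, 50.05 ± 6.34 CPM in WT, -1.06 ± 0.12, adjusted p = 0.000373).

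Of the glutathione S-transferases, which attach glutathione to other molecules, 3 of 11 tested were higher (27.3%), 4 lower and 4 did not pass. The share higher was near the 25.7% over all tested genes, of which 23.1% were lower. Gstm1 averaged 16.3 ± 2.08 CPM in Eumyc and 34.9 ± 5.85 CPM in WT and fell by 1.11 ± 0.14 (adjusted p = 0.000639), and the membrane enzyme Mgst2 fell by 0.81 ± 0.14 (adjusted p = 0.00209). Gsto1 rose by 0.53 ± 0.11 (adjusted p = 0.00471). Of the 4 tested superoxide dismutase and catalase genes 2 were higher. Sod1, the cytosolic superoxide dismutase, averaged 94.9 ± 9.62 CPM in Eumyc and 75.6 ± 1.37 CPM in WT (0.33 ± 0.08, adjusted p = 0.00848), and the mitochondrial Sod2 averaged 54.4 ± 1.7 CPM in Eumyc and 47.5 ± 0.356 CPM in WT (0.19 ± 0.06, adjusted p = 0.0278). Sod2 did not pass without Eumyc 1 (0.18, adjusted p = 0.0842), WT 1 (0.21, adjusted p = 0.0555) or WT 2 (0.20, adjusted p = 0.0591), nor with scaling by total counts (0.16, adjusted p = 0.0532) or upper quartile (0.15, adjusted p = 0.0607). Catalase, Cat, averaged 111 ± 9.49 CPM in Eumyc and 99.1 ± 2.09 CPM in WT and did not pass (0.16 ± 0.07, adjusted p = 0.0877), but passed without Eumyc 2 (0.22, adjusted p = 0.0392).

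Nfe2l2 encodes NRF2, the transcription factor that induces many antioxidant genes, and averaged 75.7 ± 12.5 CPM in Eumyc and 71.8 ± 3.67 CPM in WT (0.08 ± 0.11, adjusted p = 0.593). Without Eumyc 1 its log2 fold change was -0.05. Keap1, which marks NRF2 for degradation, averaged 72.4 ± 1.23 CPM in Eumyc and 53.3 ± 6.43 CPM in WT and rose by 0.45 ± 0.09 (adjusted p = 0.00363). Of the 12 NRF2 regulators and targets 7 were higher, 1 lower and 4 did not pass, with a median of 0.29. The 7 include Keap1, so they do not count targets alone. They also include the scarce Nqo1 and Osgin1, which averaged 0.696 and 4.02 CPM in Eumyc. Blvrb, a biliverdin and flavin reductase of red cells and other tissues, rose by 0.90 ± 0.19 (adjusted p = 0.00526), while Hmox1 did not pass (-0.10 ± 0.14, adjusted p = 0.589). In Eumyc 1, the library with the most monocyte and macrophage transcripts, 10 of the 12 genes of this list were higher than the mean of Eumyc 2 and 3 (median 0.19). How many of all tested genes were higher in Eumyc 1 was not counted. The part of Eumyc 1 in the count of 7 higher genes was not tested. Of 12 tested genes listed under NADPH supply 8 were higher, 2 lower and 2 did not pass, with a median of 0.42. The list also holds genes that do not reduce NADP themselves, such as Nadk. G6pdx rose by 0.75 ± 0.11 (adjusted p = 0.00102) and Pgd by 0.62 ± 0.06 (adjusted p = 0.000271). The 2 lower genes were Idh2 and Nnt. Lower genes numbered 0 when Eumyc 2 or WT 2 was left out, and 1 when Eumyc 1, Eumyc 3 or WT 1 was. Tkt, the transketolase of the pentose phosphate pathway, averaged 298 ± 20.2 CPM in Eumyc and 157 ± 24.2 CPM in WT (0.93 ± 0.11, adjusted p = 0.000414). Mthfd2, a mitochondrial folate enzyme known from dividing cells, averaged 34.4 ± 5.01 CPM in Eumyc and 7.48 ± 4.31 CPM in WT (2.25 ± 0.33, adjusted p = 0.000998). Nadk, which makes NADP from NAD, rose by 1.02 ± 0.17 (adjusted p = 0.00182) and was 0.67 higher in Eumyc 1 than the mean of Eumyc 2 and 3 on the log2 scale.

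Of 9 genes of selenoprotein synthesis 4 were higher, 1 lower and 4 did not pass. With each library left out in turn, and under DESeq2, 0 were lower. Sephs1 averaged 75.1 ± 7.05 CPM in Eumyc and 46.7 ± 1.35 CPM in WT (0.69 ± 0.08, adjusted p = 0.000410). Sephs2 rose less, by 0.33 ± 0.08 (adjusted p = 0.00899). Scly, which releases selenium from selenocysteine, rose by 0.48 ± 0.07 (adjusted p = 0.000914). Of 12 other selenoproteins 5 were higher, 2 lower and 5 did not pass. Selenop, a selenium carrier, was lower, at 134 ± 7.21 CPM in Eumyc and 228 ± 24.3 CPM in WT (-0.77 ± 0.08, adjusted p = 0.000345). Selenoh, a nuclear selenoprotein, rose by 0.79 ± 0.13 (adjusted p = 0.00178), and Msrb1, which repairs oxidised methionine, rose by 1.23 ± 0.23 (adjusted p = 0.00308) with Eumyc 1 higher by 0.82 than the mean of Eumyc 2 and 3.

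Subunits of the NADPH oxidase, the phagocyte enzyme that produces superoxide, were higher for 4 of 6 genes, with 0 lower and a median log2 fold change of 1.45. Cybb, the catalytic subunit, had 226, 87.6 and 109 CPM in Eumyc, against 5.01, 6.68 and 9.35 CPM in WT (4.36 ± 0.40, adjusted p = 0.000209). Ncf1 averaged 34.4 ± 9.44 CPM in Eumyc and 5.96 ± 1.05 CPM in WT (2.54 ± 0.22, adjusted p = 0.000189). As with Gpx1 and the monocyte and macrophage list, Eumyc 1 was the highest library, by 1.21 for Cybb and 0.58 for Ncf1. Of 8 genes of ferroptosis and lipid peroxides, the setting in which Gpx4 works, 3 were higher, 1 lower and 4 did not pass. Tfrc, the transferrin receptor that brings in iron, averaged 58.1 ± 6.13 CPM in Eumyc and 24.7 ± 3.76 CPM in WT (1.24 ± 0.12, adjusted p = 0.000245), and Acsl4, which loads polyunsaturated fatty acids onto coenzyme A, rose by 0.37 ± 0.07 (adjusted p = 0.00241).

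The authors' deposited table of their own comparison lists all 10 genes, 8 of them higher in Eumyc at its adjusted p under 0.05, against 30.5% of the 10288 genes with a value there. It uses the same libraries and is no separate evidence. The log2 fold changes in the authors' deposited table were 1.28 for Gpx1, 1.16 for Txn1, 0.88 for Prdx1 and -0.13 for Gpx4, and its adjusted p was 0.0878 for Prdx4.

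The genes whose pattern over the 6 libraries was most like that of Gpx1, by the root mean square difference of centred log2 CPM among 9005 genes, were Gk (0.0767), Ctss (0.0841), which encodes the lysosomal protease cathepsin S, and Rras (0.108). Those most like Gpx4 were Washc1 (0.0257), H2afz (0.0304) and Tlk2 (0.0335). Copies of the members were looked for by symbol only, so copies under other names were missed. Of those found, Prdx6b, Prdx6-ps2 and Prdx2-rs3 were at 0 in every library, and Txn-ps1 had 17, 15 and 20 counts in Eumyc and 4, 1 and 1 in WT. Read filters are not given, so these counts do not show how many reads a copy shares with its gene.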

How the data were processed

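Whole-number counts per gene were deposited by the authors for 50686 mouse genes in 6 libraries; STAR 2.5.2, HTSeq 0.6.1 and DESeq2 1.10.1 with mm10 and GRCm38 are named per the submitters' processing notes. The sources used here do not give the annotation release, strand setting and read filters, so overlapping and antisense genes are uncertain. The authors' deposited comparison gives log2 fold changes and p-values, printed only where named. Genes were tested with edgeR 4.0.16 (R 4.3.3): filterByExpr at a minimum count of 10, TMM scaling, group only, quasi-likelihood test, two-sided, Benjamini-Hochberg over 15458 genes, threshold 0.05. CPM are TMM-scaled; marker and list sums are plain CPM. Ratios within libraries and marker sums used two-sided exact permutation tests. Alternatives were DESeq2 1.42.0, limma 3.58.1 voom, other scalings and filters, a test against 1.5-fold, thinning to the smallest library, leaving out each library in turn and a replicate block. The members, gene lists and tests were chosen with earlier results of these data known. Named genes were the 10 members, up to 3 changed genes of each pathway list (mean in the higher group 10 CPM or more) and 12 partners whatever their result. The 2 most abundant markers of each other cell type, given only beside a member's result, and the nearest patterns were named too. Ncr1, Lyz2, Sephs2, G6pdx, Pgd, Idh2, Nnt, Nqo1, Osgin1 and Hmox1 were named after their values were seen. Gss, Mafg, Eefsec and Slc3a2, whose calls were lost under several leave-outs, are counted without their values. The edgeR script was checked on simulated counts. Library totals set the depth: 44456157, 65353739 and 66615602 counts in Eumyc and 27535702, 36534191 and 16407611 in WT.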

Additional observations from a re-analysis of the deposited data

How the results depend on the processing

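The count of members higher in Eumyc was 8 or 9 and the count lower was 0 under every alternative but the test against a 1.5-fold change, which left 3 higher; over all genes that test gave 1260 higher and 568 lower, against 3973 and 3576. With each library left out in turn, 8 to 9 members, 3252 to 4284 genes higher and 2616 to 3623 lower were called. The pathway lists held 47 higher and 16 lower genes, and 41 to 50 higher and 9 to 15 lower with a library left out; lower genes numbered 10 with no filter, and the 1.5-fold test gave 16 higher and 3 lower. The ratio of Prdx3 to Prdx5 (log2 difference -0.06) ranged from -0.130 to 0.0256 and that of Prdx4 to Prdx1 (-0.14) from -0.468 to 0.168 with a library left out, reversing without Eumyc 1 and without WT 3. Nfe2l2 (0.08) ranged from -0.0489 to 0.179, and was -0.0800 with Eumyc 1 and WT 3 both left out. Trbc1, a T cell receptor gene (-0.00), ranged from -0.0383 to 0.0376 and was 0.0037 with DESeq2, 0.00031 with limma-voom, 0.0036 with DESeq2 size factors, 0.0238 with no filter, 0.0198 thinned and 0.0357 with both left out. The cause was not tested. Of the named genes, leaving out those named after their values were seen, 31 lost a call under at least 1 alternative, 3 gained one and 2 changed sign. With the replicate block 9 members were higher, Prdx4 included (0.75, edgeR adjusted p = 0.0192), Srxn1 (0.34, adjusted p = 0.0350) and Cat (0.16, adjusted p = 0.0448) passed, and 7860 genes passed against 7549. Deviations of same-numbered libraries correlated at 0.0404, 0.0985 and 0.126, each library best with its own number, which is a hint of pairing from the data. The libraries were not taken as pairs because the labels name no shared animal, batch or day and not every correlation was over 0.1. Prdx4 had the fewest counts of the members, 79 to 151 in WT.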
